A study of Arabidopsis thaliana with 12 samples.

Results

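Libraries were made from total RNA of Arabidopsis thaliana seedlings of the wild-type accession Columbia-0 (Col-0). They form 2 separate sets, and the sets are compared here gene by gene. Col-0 set 2 is titled Group2, as are the fas2-4 mutant libraries, and Col-0 set 1 is titled Group1, as are the hira-1 mutant libraries. The members were taken by label alone: the 3 Col-0 libraries of each set, which is 6 of the 12 libraries in the series, joined on 32833 gene identifiers. No mutant library enters any comparison here. Both sets carry the same genotype and no transgene or treatment is named. Plants of both sets grew on soil in long days, with a chamber temperature near 21 °C, from seed that had been kept at 4 °C for 4 days. Both sets were collected at 12 days after germination. The sources used here do not give the hour of harvest or the growth date of either set. Set, deposited count table and sequencing depth coincide in these libraries and cannot be told apart.

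A seedling reads its surroundings through a few well-studied transcriptional programs. The circadian clock is a loop of repressors that peak in turn between dawn and night. Dawn is marked by the MYB factors CCA1 and LHY, the day by the PRR family, and the evening by GI and by a complex of ELF3, ELF4 and LUX. Photoreceptors stabilise the factor HY5 in the light and remove the PHYTOCHROME INTERACTING FACTORS (PIFs), which drive stem and petiole growth in shade and in the dark. Sugar supply is read by the kinase SnRK1, which switches on a starvation program through bZIP factors when sugar is short. Phosphate and iron supply are read by the factor PHR1 with its SPX inhibitors, and by a cascade of bHLH factors.

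The libraries of set 2 held 39337661 to 39510509 counts and those of set 1 held 21609016 to 21902258. Genes of the organelle genomes made up 0.087% to 0.135% of the counts in set 2 libraries and 0.297% to 0.458% in set 1 libraries. Levels below are CPM (counts relative to the library total, scaled by TMM), and a fold change is set 2 over set 1 on the log2 scale with its standard error (SE). A gene was called when its adjusted p in edgeR, over all 19365 genes tested, was under 0.05. Nothing in the labels says that the libraries of a set came from separate cultures, so these p-values measure the spread between these libraries only. Spread was wider in set 1, where the biological coefficient of variation was 0.218, against 0.108 in set 2. Replicate 3 of set 1 stood apart from the other libraries. Its deviations from the mean of all libraries correlated with exon length at -0.389 (Spearman, across genes, which are not independent replicates), while in the other 5 libraries this correlation lay between 0.0649 and 0.173. Counts without that library are therefore given beside each gene list. The deviations correlated with GC content (Spearman) at 0.0986, 0.239 and 0.222 in set 2 libraries. In set 1 these correlations were -0.0695, -0.000332 and -0.342, so the sets did not overlap. No correction for GC content was run, and its part in the results below was not tested. Of tested genes with 2598 to 16614 exon bases, 19.9% were called higher and 11.9% lower in set 2. For 29 to 1160 exon bases the shares were 13.1% and 17.9%. Green tissue markers were abundant in every library, whereas 11 of 15 root markers, among them the root hair genes EXPA7 and COBL9 and the Casparian strip genes CASP1 to CASP5, had at most 7 counts in any library. The 4 root markers tested summed to 241.8 to 261 CPM in set 2 and 200.3 to 254 CPM in set 1. Of these 2, PYK10 and SCR, were called higher in set 2, also without replicate 3 of set 1. The other 2, TIP2;2 and SHR, were not called, and without replicate 3 of set 1 their log2 changes were -0.45 and 0.03. No seed storage gene exceeded 4 counts. The part of root tissue in the results below was not tested.

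The sets differed at 6498 genes, which is 33.6% of the genes tested. Of these, 3156 genes (16.3%) were higher in set 2 and 3342 (17.3%) were lower. A change of at least 2-fold was found for 1286 called genes that were higher (6.64%) and 1134 that were lower (5.86%). The median change of all genes tested was 0.01 on the log2 scale. The libraries of the sets did not overlap at 9871 genes (51%). These shares are the background against which the count of each list has to be read. Without replicate 3 of set 1 the background was larger, at 3805 genes higher and 3803 lower of 19911 tested. A list count that rises in that fit has to be read against those totals. Whether a lower value means fewer cells of a type or less RNA per cell cannot be told apart in bulk RNA.

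**Figure D1:**
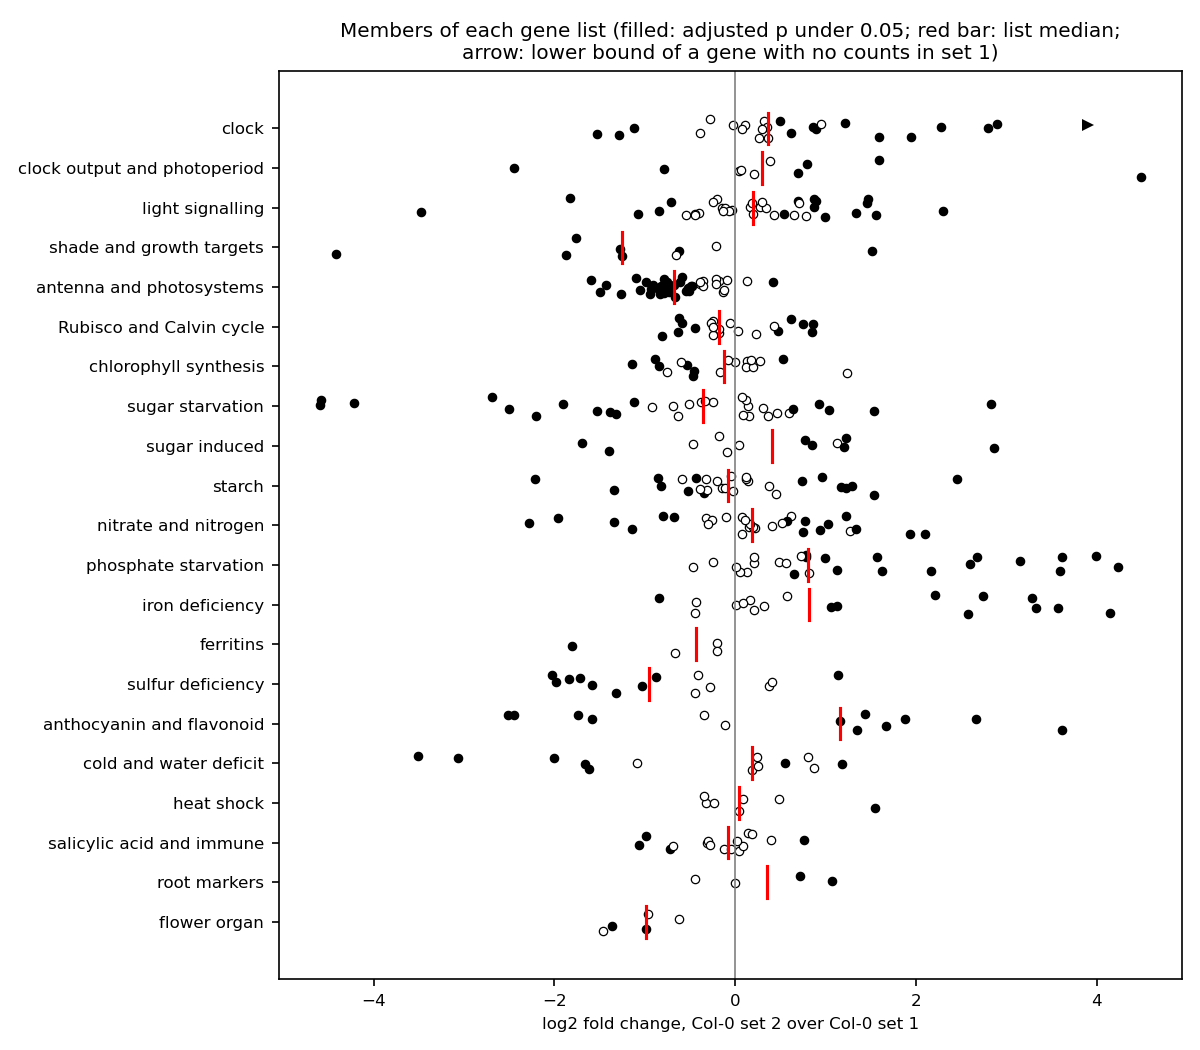
Log2 fold change of set 2 over set 1 for every tested member of 21 gene lists, with filled points for called genes and a red bar at the list median. The phosphate starvation points lie mostly right of 0 and the antenna and photosystem points mostly left of 0, and the arrow in the clock row is a lower bound for PRR5, which had no counts in set 1.

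Transcript levels of clock genes differed between the sets. Of 25 tested clock genes 11 were higher and 3 were lower in set 2. That is 44% and 12% of the list, against 16.3% and 17.3% of all genes tested, and the median change was 0.36. Leaving out replicate 3 of set 1 gave 14 higher and 4 lower. Both dawn repressors rose. CCA1 had 319.7, 288 and 249 CPM in set 2, against 153, 177 and 132 CPM in set 1. LHY had 781, 682 and 766 CPM in set 2, against 182, 282 and 276 CPM in set 1. In both genes every set 2 library lay above every set 1 library, and the change was 0.89 ± 0.15 for CCA1 (adjusted p = 0.00219) and 1.59 ± 0.17 for LHY (adjusted p = 0.000283). RVE2, a relative of CCA1, moved the same way with 37, 26.1 and 29.6 CPM in set 2, against 4.6, 10.2 and 9.23 CPM in set 1 (log2 change 1.95 ± 0.27, adjusted p = 0.00102). Another relative, RVE7, had 11.1, 11.9 and 8.95 CPM in set 2, against 29.5, 27.5 and 21.2 CPM in set 1, so its sets did not overlap in the opposite direction (log2 change -1.29 ± 0.17, adjusted p = 0.000747). The activators RVE4 and RVE8 and the coactivators LNK1 to LNK4 were not called, with changes of -0.39 to 0.35. RVE1, another relative of CCA1, had a log2 change of 0.32 and was not called (adjusted p = 0.0708). AT5G52660, a member of the list that the reference does not name, rose by 0.86 ± 0.17 (adjusted p = 0.00558).

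The day-phase PRR repressors did not move together. PRR9 had 35.9, 33.4 and 29.3 CPM in set 2, against 33.4, 24.9 and 42.3 CPM in set 1, and the sets overlapped (adjusted p = 0.916). PRR7 had 8.94, 11.7 and 9.3 CPM in set 2, against 38.6, 30.8 and 17 CPM in set 1, and fell by 1.53 ± 0.27 on the log2 scale (adjusted p = 0.00310). PRR5 was weakly expressed in set 2, with 21, 30 and 30 counts, and had no count in any set 1 library. With a floor of 3 counts over set 1 it was at least 14.9-fold higher in set 2. PRR3 was also near the limit of detection, with 26, 32 and 27 counts in set 2, against 0, 3 and 3 in set 1 (adjusted p = 0.00579). TOC1, the last of the family to peak, had 10.5, 11.6 and 13.8 CPM in set 2, against 7.33, 9.43 and 8.66 CPM in set 1. Its sets did not overlap but its change of 0.5 ± 0.17 was close to the threshold (adjusted p = 0.0453), and it lost its call when the counts were corrected for gene length (adjusted p = 0.101). CHE, a factor that represses CCA1, had 35.3, 33.6 and 44.3 CPM in set 2, against 75.3, 86.8 and 83.1 CPM in set 1, a fall of 1.12 ± 0.14 (adjusted p = 0.000567).

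Evening genes were higher in set 2 where they were called. GI, a scaffold protein of the late day, had 19.5, 26.5 and 22.3 CPM in set 2, against 4.89, 6.01 and 3.16 CPM in set 1. The sets stood well apart, and the log2 change was 2.28 ± 0.23 (adjusted p = 0.000201). ELF3 rose by 1.21 ± 0.25 (adjusted p = 0.00580). Its partner LUX rose by 0.62 ± 0.18 (adjusted p = 0.0281), and BOA, the close homologue of LUX, had 3.08, 2.67 and 2.53 CPM in set 2, against 0.538, 0.141 and 0.43 CPM in set 1 (log2 change 2.9 ± 0.36, adjusted p = 0.000517). ELF4, the other subunit, had 0.972, 1.24 and 1.5 CPM in set 2, against 0.44, 0.422 and 1.05 CPM in set 1, and was not called (adjusted p = 0.0855). It was called in 2 of the 15 alternatives that tested it. These were the length correction (adjusted p = 0.0439) and the fit without replicate 3 of set 1 (log2 change 1.52, adjusted p = 0.00974). LUX and BOA share exon sequence with an overlapping gene, and 61.5% and 51.6% of their exon bases are free of overlap. The LUX call was also lost under the length correction (adjusted p = 0.369). The blue-light F-box gene ZTL was not called (log2 change 0.36 ± 0.12, adjusted p = 0.0512), nor was its relative LKP2 (log2 change 0.26 ± 0.15, adjusted p = 0.204), and FKF1 was too weakly expressed to be tested.

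**Figure D2:**
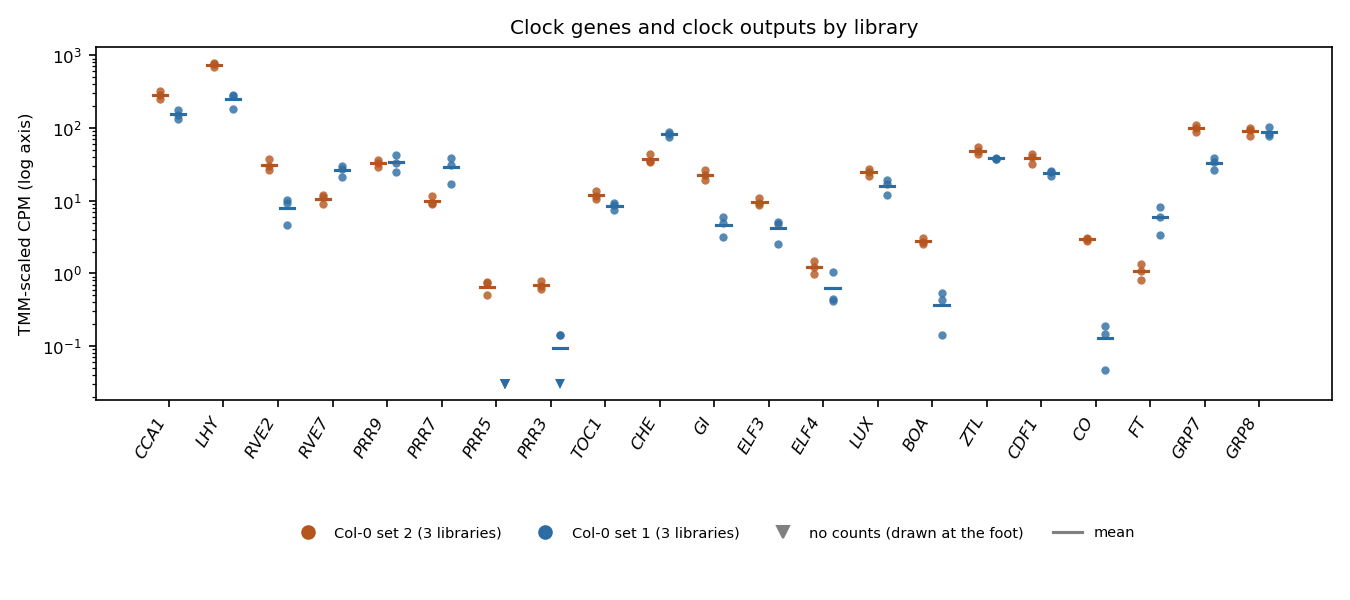
TMM-scaled CPM on a log axis for 21 clock and clock output genes, 1 point per library, with set 2 left and set 1 right in each pair and a bar at the mean. GI, BOA, CO and GRP7 are higher in set 2, and PRR7, CHE, RVE7 and FT are lower. PRR5 has no counts in set 1.

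The outputs of the clock included large changes in both directions. Of 10 tested genes 4 (40%) were higher and 2 (20%) lower in set 2, against 16.3% and 17.3% of all genes tested. Without replicate 3 of set 1 the counts were 5 and 2. CO, the factor that measures day length, had 3.08, 2.94 and 2.83 CPM in set 2, against 0.147, 0.0469 and 0.191 CPM in set 1. That is 113 to 130 counts per set 2 library, against 1 to 4 counts per set 1 library, and the log2 change was 4.49 ± 0.37 (adjusted p = 6.74e-05). Only 32.6% of the exon bases of CO are free of another annotated gene, so its value is uncertain. FT, the flowering signal that CO activates, had 1.09, 0.802 and 1.35 CPM in set 2, against 8.31, 3.38 and 6.03 CPM in set 1. It thus ran opposite to CO, with every set 2 library below every set 1 library (log2 change -2.44 ± 0.34, adjusted p = 0.00107). GRP7, an RNA-binding protein with a strong daily rhythm, had 88.4, 98.6 and 111 CPM in set 2, against 33.6, 26.5 and 39.1 CPM in set 1 (log2 change 1.59 ± 0.17, adjusted p = 0.000201). Its homologue GRP8 had 78.4, 93.7 and 99.1 CPM in set 2, against 83.1, 78.4 and 102 CPM in set 1, and the sets overlapped (adjusted p = 0.853). Among the CO repressors of the CDF family, CDF1 and CDF3 rose by 0.69 and 0.8, while CDF2 fell by 0.78.

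The promoters of these genes are shown because evening expression is known to depend on a short motif, the evening element. The motif AAAATATCT was searched on both strands in the 300 bases before each annotated gene start. It was present in 562 of 19243 promoters of tested genes (2.92%), in 5 of 25 tested clock genes (20%) and in 4 of the 11 that were higher in set 2, namely PRR5, TOC1, LUX and BOA. One of the 3 lower clock genes, RVE7, also carried it. GI and CCA1 had no match in this window. The promoters below are the RefSeq TAIR10.1 sequence read 5′ to 3′ on the strand of the gene, ending at the base before its start, with each match in capitals. They lie at chr5:8358547-8358846 (minus strand) for PRR5, chr3:17182742-17183041 (plus) for LUX, chr5:24003588-24003887 (plus) for BOA, chr2:9266558-9266857 (minus) for GRP7 and chr1:6308244-6308543 (minus) for RVE7.
PRR5: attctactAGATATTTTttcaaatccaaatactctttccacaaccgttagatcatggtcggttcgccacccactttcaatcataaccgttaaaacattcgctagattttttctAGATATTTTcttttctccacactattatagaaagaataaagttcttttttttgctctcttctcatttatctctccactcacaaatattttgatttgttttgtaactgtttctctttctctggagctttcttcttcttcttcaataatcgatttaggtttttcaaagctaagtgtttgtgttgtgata
LUX: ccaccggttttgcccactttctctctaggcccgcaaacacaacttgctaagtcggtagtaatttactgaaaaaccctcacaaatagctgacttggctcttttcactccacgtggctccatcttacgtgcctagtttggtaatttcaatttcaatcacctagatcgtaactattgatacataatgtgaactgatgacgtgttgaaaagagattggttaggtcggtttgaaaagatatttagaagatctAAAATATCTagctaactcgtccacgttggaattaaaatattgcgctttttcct
BOA: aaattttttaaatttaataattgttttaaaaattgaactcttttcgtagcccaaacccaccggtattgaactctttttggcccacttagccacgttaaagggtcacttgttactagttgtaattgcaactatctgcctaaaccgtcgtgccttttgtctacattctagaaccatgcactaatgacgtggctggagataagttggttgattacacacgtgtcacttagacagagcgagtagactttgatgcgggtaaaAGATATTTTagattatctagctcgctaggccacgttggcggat
GRP7: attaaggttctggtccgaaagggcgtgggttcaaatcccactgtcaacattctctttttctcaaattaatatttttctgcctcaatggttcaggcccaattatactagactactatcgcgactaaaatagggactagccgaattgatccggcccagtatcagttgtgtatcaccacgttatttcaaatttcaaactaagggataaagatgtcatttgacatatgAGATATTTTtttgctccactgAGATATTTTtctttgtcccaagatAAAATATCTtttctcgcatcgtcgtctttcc
RVE7: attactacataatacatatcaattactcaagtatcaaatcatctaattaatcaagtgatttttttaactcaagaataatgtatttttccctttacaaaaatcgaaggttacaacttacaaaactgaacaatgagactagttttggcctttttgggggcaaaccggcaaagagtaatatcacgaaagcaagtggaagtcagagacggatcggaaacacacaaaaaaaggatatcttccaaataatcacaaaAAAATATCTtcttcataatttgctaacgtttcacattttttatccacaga
GRP7 held 3 matches within 76 bases of its start and PRR5 held 2, while LUX, BOA and RVE7 held 1 each. GRP8, which was not called, also carried the motif. The share among called genes was 3.27% for those higher in set 2 and 3.86% for those lower, and among genes at least 2-fold higher or at least 2-fold lower it was 3.74% and 4.95%.

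Light signalling genes were called in both directions. Of 37 tested genes 11 (29.7%) were higher and 5 (13.5%) lower in set 2, against 16.3% and 17.3% of all genes tested. The median change of the list was 0.20. Leaving out replicate 3 of set 1 gave 15 higher and 8 lower. HY5, the central activator of light responses, had 71.3, 58.3 and 72 CPM in set 2, against 10.5, 13.5 and 17.1 CPM in set 1. The sets stood well apart, and the log2 change was 2.3 ± 0.19 (adjusted p = 7.48e-05). Its homologue HYH rose by 1.33 ± 0.22 (adjusted p = 0.00221). RUP1 and RUP2, repressors of the ultraviolet-B receptor that HY5 activates, had 11.5, 10.2 and 12.9 CPM and 77.2, 71.7 and 94 CPM in set 2, against 3.28, 4.36 and 4.93 CPM and 18.1, 27 and 37.5 CPM in set 1. Both rose, by 1.46 ± 0.19 and 1.55 ± 0.24 (adjusted p = 0.000681 and 0.00162). The receptor gene UVR8 itself had a change of -0.03 ± 0.13 (adjusted p = 0.871).

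Photoreceptor genes went different ways. The red-light receptor PHYB had 68.6, 74.5 and 65.3 CPM in set 2, against 29.1, 29.6 and 16.7 CPM in set 1, and rose by 1.47 ± 0.21 (adjusted p = 0.00106). PHYE rose by 0.87 ± 0.19. PHYA, PHYC and PHYD were not called. The blue-light receptor CRY1 had 78.2, 84.5 and 84.9 CPM in set 2, against 189, 144 and 111 CPM in set 1, and fell by 0.84 ± 0.18 (adjusted p = 0.00742), while CRY2 overlapped between the sets. Among the SPA proteins, which help to degrade HY5, SPA3 and SPA4 rose by 0.69 and 0.54, and SPA1 and SPA2 were not called. The light-stress proteins ELIP1 and ELIP2 rose by 0.89 and 0.87, although the libraries of the sets overlapped for both.

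Of 5 PIF genes tested 3 fell, and most of the shade and growth targets tested fell with them. PIF4 had 4.93, 5.93 and 6.62 CPM in set 2, against 89.8, 67.5 and 37.5 CPM in set 1. No library of one set came near the other set, and the log2 change was -3.48 ± 0.3 (adjusted p = 9.85e-05). PIF1 had 6.09, 6.25 and 5.34 CPM in set 2, against 26.5, 22.3 and 13.9 CPM in set 1, and PIF5 had 67.7, 75.2 and 75.5 CPM in set 2, against 176, 187 and 96.6 CPM in set 1. They fell by 1.82 ± 0.23 and 1.08 ± 0.22 (adjusted p = 0.000582 and 0.00660), whereas PIF3 and PIF7 overlapped between the sets. Of 9 tested shade and growth targets 6 were lower (66.7%) and 1 higher (11.1%), against 17.3% and 16.3% of all genes tested. The median of the list was -1.26. The same counts were found without replicate 3 of set 1. IAA29, an auxin-response repressor induced by shade, had 0.261, 0.146 and 0.10 CPM in set 2, against 6.65, 2.25 and 2.3 CPM in set 1 (log2 change -4.42 ± 0.56, adjusted p = 0.000641). The homeobox genes ATHB2, HAT1, HAT2 and HAT3 and the repressor gene IAA19 also fell, by 0.62 to 1.87. HAT3, the smallest of these, kept its call in only 2 of the 6 fits that left out a library. ATHB2 had 5.12, 4.84 and 5.54 CPM in set 2, against 28.9, 11.6 and 16.1 CPM in set 1. The cell wall gene XTH15 went the other way, with a rise of 1.51 ± 0.38 (adjusted p = 0.0152).

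Most genes of the photosynthetic antenna and photosystems fell in set 2. Of 40 tested antenna and photosystem genes 28 were lower, which is 70% against 17.3% of all genes tested. LHCB7 alone was called higher (2.5% against 16.3%). The median change was -0.67, with values from -1.6 to 0.41. The counts were the same without replicate 3 of set 1, but some members differed. In that fit LHCB6 and PSBR lost their calls (adjusted p = 0.0575 and 0.101). LHCB4.1 and PSAF, not called with all libraries, were called lower there (adjusted p = 0.0499 and 0.0382). The list summed to 90199, 106280 and 118340 CPM in set 2, against 182300, 148650 and 165560 CPM in set 1, so the sets did not overlap in the sum. LHCA4, a photosystem I antenna protein, had 3695, 4241 and 4311 CPM in set 2, against 11790.2, 9560.3 and 11732 CPM in set 1 (log2 change -1.43 ± 0.14, adjusted p = 0.000126). LHCB1.2 had 1895, 2468 and 2668 CPM in set 2, against 7764, 5785 and 6211 CPM in set 1 (log2 change -1.49 ± 0.17, adjusted p = 0.000321). Its neighbour LHCB1.3 had 12971, 17228 and 20787 CPM in set 2, against 22756, 16972 and 17880.0 CPM in set 1, and overlapped. The LHCB1 genes are near-identical copies, so how reads were divided between them is uncertain. Both subunits PSAD1 and PSAD2 of photosystem I and the oxygen-evolving proteins PSBO1 and PSBO2 fell, by 0.61 to 1.05. Among the photoprotective and minor members, PSBS, LHCA5 and LHCA6 were not called.

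Genes of carbon fixation were called in both directions. Of 20 tested Rubisco and Calvin cycle genes 5 were higher and 5 lower in set 2, and no change reached 2-fold. That is 25% of the list each way, against 16.3% and 17.3% of all genes tested. Without replicate 3 of set 1, 5 were higher and 4 lower. The small subunit gene RBCS2B had 7736, 7314 and 8641 CPM in set 2, against 5211, 5209.8 and 3690.2 CPM in set 1, a rise of 0.75 ± 0.16 (adjusted p = 0.00672). RBCS genes are similar copies and their reads may be divided between them. RCA, which reactivates Rubisco, had 8658, 8891 and 9288 CPM in set 2, against 5404, 6339 and 3027 CPM in set 1, where replicate 3 was the lowest (adjusted p = 0.0204). FBA2 and SBPASE, enzymes of the regeneration phase, fell by 0.81 ± 0.14 and 0.64 ± 0.12 (adjusted p = 0.00263 and 0.00402). Of 18 chlorophyll synthesis genes 6 were lower (33.3%) and 1 higher (5.56%), against 17.3% and 16.3% of all genes tested. CAO, which makes chlorophyll b, had 190.2, 229 and 219.9 CPM in set 2, against 563, 437 and 411 CPM in set 1, a fall of 1.14 ± 0.15 (adjusted p = 0.000687). HEMA1, the first committed enzyme of the pathway, fell by 0.84 ± 0.12 (adjusted p = 0.000864), and the light-dependent reductase PORC by 0.88 ± 0.13 (adjusted p = 0.00107). Its homologue PORB had 154, 149.9 and 137 CPM in set 2, against 124, 44.9 and 18.8 CPM in set 1, where replicate 3 was the lowest, and was not called (adjusted p = 0.0935). Without replicate 3 of set 1, 2 chlorophyll genes were higher and 5 lower.

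**Figure D3:**
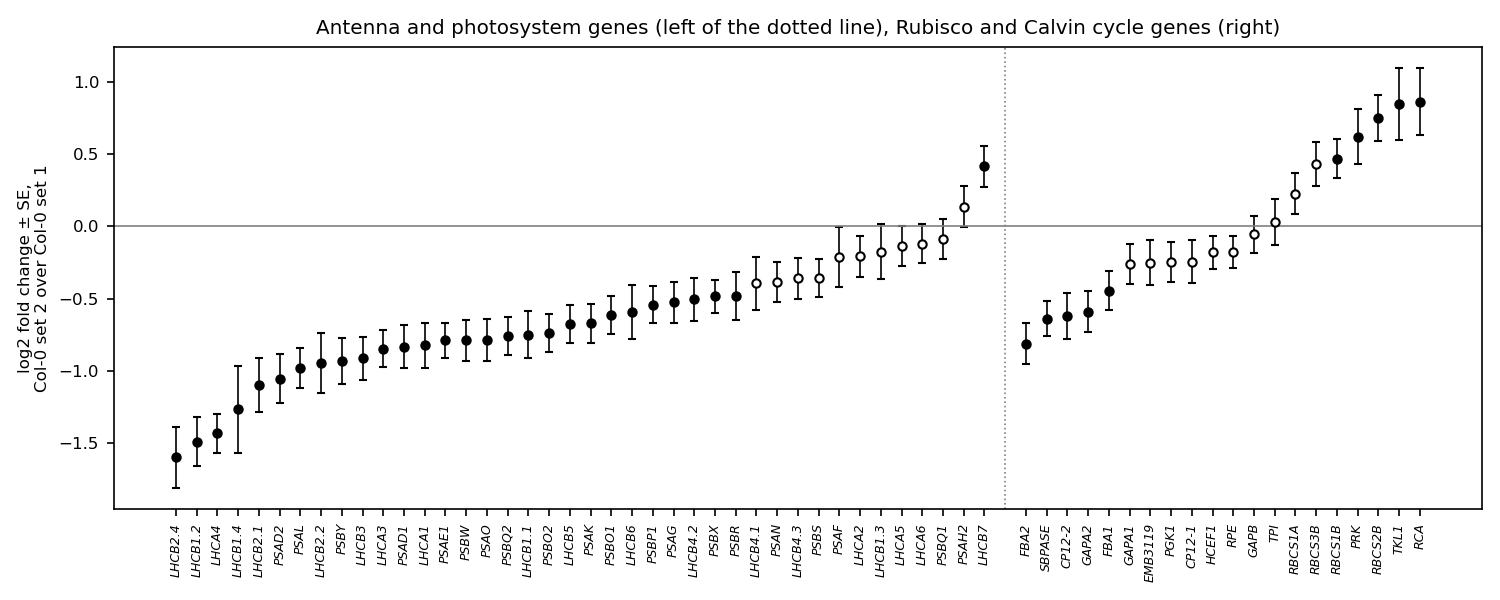
Log2 fold change of set 2 over set 1 with its SE for the 40 tested antenna and photosystem genes and the 20 tested Rubisco and Calvin cycle genes, filled where called. All but 1 of the called antenna genes lie below 0, while the called carbon fixation genes lie on both sides.

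Sugar-starvation genes held some of the largest falls. Of 32 tested genes 11 (34.4%) were lower and 5 (15.6%) higher in set 2, against 17.3% and 16.3% of all genes tested. All 11 of the lower list members changed at least 2-fold. With replicate 3 of set 1 left out, 13 were lower and 5 higher. The class II trehalose phosphate synthase-like gene TPS8 had 6.83, 7.1 and 8.95 CPM in set 2, against 217, 203 and 129 CPM in set 1. Again no library came near the other set, and the log2 change was -4.58 ± 0.23 (adjusted p = 1.03e-05). TPS11 had 2.61, 2.87 and 3.28 CPM in set 2, against 93.1, 52.2 and 17.2 CPM in set 1 (log2 change -4.21 ± 0.53, adjusted p = 0.000605). TPS9 and TPS10 fell by 2.2 ± 0.33 and 1.52 ± 0.29 (adjusted p = 0.00137 and 0.00438), while TPS5 was not called. BT2, a scaffold protein that sugar represses, had 2.87, 1.63 and 2.23 CPM in set 2, against 76.7, 67.6 and 18.7 CPM in set 1 (log2 change -4.59 ± 0.5, adjusted p = 0.000305). For TPS11 and BT2 replicate 3 was the lowest library of set 1, yet it stayed above all of set 2.

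The bZIP genes of the sugar-starvation list were called in both directions. BZIP63, a direct target of SnRK1, had 10.05, 8.68 and 10.2 CPM in set 2, against 59.7, 69.3 and 57.2 CPM in set 1 (log2 change -2.69 ± 0.14, adjusted p = 1.03e-05). BZIP1 had 3.03, 2.72 and 3.01 CPM in set 2, against 20.6, 18.5 and 10.5 CPM in set 1 (log2 change -2.5 ± 0.25, adjusted p = 0.000176). BZIP11, whose translation is blocked by sucrose, had 36.2, 27.5 and 33 CPM in set 2, against 16, 17.1 and 17.7 CPM in set 1, and rose by 0.93 ± 0.14 (adjusted p = 0.00145). BZIP2 and BZIP53 were not called. The kinase subunits KIN10 and KIN11 had changes of 0.08 and -0.24 and were not called, while the regulatory subunit AKINBETA1 fell by 1.32 ± 0.3 (adjusted p = 0.00928). Classical dark-inducible genes also differed in direction: SEN1 fell by 1.9 ± 0.4, DIN4 and DIN9 rose by 0.64 and 1.03, and ASN1, DIN3 and DIN10 were not called. DRM2, related to dormancy, had 19.2, 9.87 and 15.2 CPM in set 2, against 2.69, 2.53 and 1.0 CPM in set 1, a rise of 2.83 ± 0.36 (adjusted p = 0.000632). Its homologue DRM1 fell by 1.12 ± 0.38 (adjusted p = 0.0484), with overlapping sets.

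**Figure D4:**
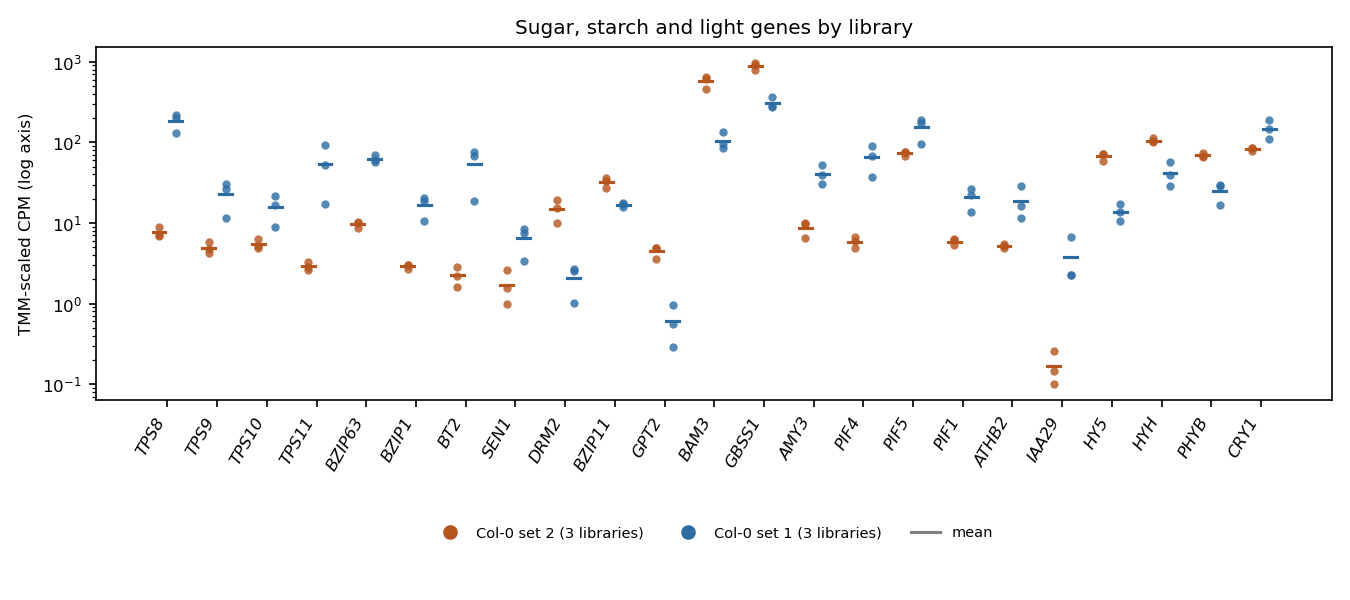
TMM-scaled CPM on a log axis for 23 genes of sugar starvation, sugar response, starch and light, 1 point per library, with set 2 left and set 1 right in each pair and a bar at the mean. TPS8, TPS11, BT2, PIF4 and IAA29 are far lower in set 2, while GPT2, BAM3, GBSS1 and HY5 are higher.

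Of 12 tested genes that sugar induces 5 (41.7%) were higher and 2 (16.7%) lower, against 16.3% and 17.3% of all genes tested. The 2 lower list members were APL3 and BAM5. The counts were the same without replicate 3 of set 1, but 1 of the lower genes differed. BAM5 (log2 change -1.7, adjusted p = 0.0340) lost its call in that fit (adjusted p = 0.152). SUC2, not called with all libraries, was called lower there (adjusted p = 0.0270). GPT2, the plastid glucose-6-phosphate transporter, had 3.63, 4.84 and 4.84 CPM in set 2, against 0.293, 0.563 and 0.957 CPM in set 1 (log2 change 2.86 ± 0.34, adjusted p = 0.000414). The sucrose exporters SWEET11 and SWEET12 rose by 0.77 ± 0.15 and 1.2 ± 0.14, and the sucrose phosphate synthases SPS1F and SPS4F by 0.84 and 1.22. APL3, a subunit of the enzyme that makes ADP-glucose for starch, had 12.8, 17 and 12.5 CPM in set 2, against 38, 33.6 and 39.9 CPM in set 1, and fell by 1.4 ± 0.16 (adjusted p = 0.0003). The sugar-induced list therefore held members called in both directions.

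Starch genes were called higher in 7 and lower in 7 of 28 tested. That is 25% of the list each way, against 16.3% and 17.3% of all genes tested. Without replicate 3 of set 1, 7 were higher and 11 lower. GBSS1, which makes amylose, had 909, 963 and 800.4 CPM in set 2, against 273, 285 and 367 CPM in set 1 (log2 change 1.53 ± 0.15, adjusted p = 0.000141). BAM3, the chloroplast beta-amylase of leaf starch breakdown, had 651, 619 and 461 CPM in set 2, against 96.2, 135 and 85 CPM in set 1 (log2 change 2.45 ± 0.21, adjusted p = 8.37e-05). AMY3, a plastid alpha-amylase, had 6.42, 9.8 and 10.05 CPM in set 2, against 52, 39.1 and 30.8 CPM in set 1 (log2 change -2.21 ± 0.24, adjusted p = 0.000264). Enzymes of starch breakdown were thus found on both sides. The starch kinases GWD1 and PWD rose by 1.29 and 1.22, whereas the phosphatase gene SEX4 and its homologues LSF1 and LSF2 fell by 0.43 to 1.35.

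Members of the phosphate-starvation list were higher in set 2 wherever they were called. Of 26 tested genes 15 were higher and none was lower in the edgeR test, which is 57.7% against 16.3% of all genes, and the median change was 0.80. At an unadjusted p under 0.05 the number lower was 0 as well, and DESeq2 called 17 higher and 0 lower. Leaving out replicate 3 of set 1 gave 16 higher and none lower. PAP17, a secreted acid phosphatase, had 154, 113 and 162 CPM in set 2, against 9.97, 12.7 and 12.3 CPM in set 1. All set 2 libraries lay far above set 1, and the log2 change was 3.62 ± 0.18 (adjusted p = 9.53e-06). GDPD1, a phosphodiesterase that frees phosphate from lipid products, had 36.2, 25.5 and 41.7 CPM in set 2, against 1.91, 3.05 and 0.526 CPM in set 1 (log2 change 4.23 ± 0.43, adjusted p = 0.000217), with 55.3% of its exon bases free of an overlapping gene. Other enzymes of phosphate recovery moved the same way, with rises of 2.6 ± 0.54 for the pyrophosphatase gene PS2, 1.57 ± 0.46 for the phosphatase gene PEPC1 and 2.17 ± 0.45 for the phospholipase gene PLDP2.

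The sensors and transporters of phosphate were among the rises. SPX1, an inhibitor of PHR1 that is itself a PHR1 target, had 63.7, 35.6 and 69 CPM in set 2, against 5.04, 7.84 and 6.03 CPM in set 1 (log2 change 3.15 ± 0.27, adjusted p = 0.000102). SPX2 rose by 0.78 ± 0.13, and SPX3 had 24 to 39 counts per set 2 library, against 1 or 2 counts per set 1 library. The uptake transporter PHT1;4 had 10.5, 10.7 and 11.4 CPM in set 2, against 1.71, 2.11 and 1.29 CPM in set 1 (log2 change 2.67 ± 0.2, adjusted p = 4.99e-05). PHT1;1 was weakly expressed, with 1.09, 1.48 and 1.43 CPM in set 2, against 0.0489, 0.0469 and 0.143 CPM in set 1 (log2 change 4.0 ± 0.46, adjusted p = 0.000341). The exporter PHO1 rose by 1.13 ± 0.26 and the ubiquitin conjugase PHO2, which lowers transporter abundance, by 1.0 ± 0.25. The list thus holds a gene that acts against phosphate transporters as well as the transporters themselves. Its count of rises does not measure a single response. The factor PHR1 had 38.3, 37.7 and 27.6 CPM in set 2, against 45.5, 41.1 and 36 CPM in set 1, and was not called (adjusted p = 0.262). The non-coding RNA AT4 and the sulfolipid genes SQD1 and SQD2 were not called either, and IPS1, PHT1;8 and PHT1;9 had too few counts to be tested.

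PHR1 is known to bind the motif GNATATNC, so the promoters of 3 phosphate genes that rose are shown. The motif was present in 6.51% of the 19243 promoters of tested genes, in 8 of 26 phosphate genes tested (30.8%) and in 5 of the 15 that were higher in set 2. It was also present in the promoters of the phosphate genes AT4, NLA and NPC4, which were not called. The sequences are RefSeq TAIR10.1, read 5′ to 3′ on the strand of the gene, at chr3:350011-350310 (minus strand) for GDPD1, chr2:18606110-18606409 (plus) for SPX3 and chr1:27466349-27466648 (minus) for PS2, and capitals mark the matches found on either strand.
GDPD1: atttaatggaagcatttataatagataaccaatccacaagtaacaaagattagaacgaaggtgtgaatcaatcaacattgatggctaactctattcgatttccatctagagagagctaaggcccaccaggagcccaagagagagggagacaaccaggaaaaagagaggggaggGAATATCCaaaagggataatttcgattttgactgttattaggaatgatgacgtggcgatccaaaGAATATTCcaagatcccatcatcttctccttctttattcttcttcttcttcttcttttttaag
SPX3: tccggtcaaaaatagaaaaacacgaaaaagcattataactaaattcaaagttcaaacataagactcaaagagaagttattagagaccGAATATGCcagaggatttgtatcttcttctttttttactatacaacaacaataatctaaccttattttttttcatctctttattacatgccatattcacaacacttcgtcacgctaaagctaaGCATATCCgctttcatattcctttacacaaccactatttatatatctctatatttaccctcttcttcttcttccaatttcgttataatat
PS2: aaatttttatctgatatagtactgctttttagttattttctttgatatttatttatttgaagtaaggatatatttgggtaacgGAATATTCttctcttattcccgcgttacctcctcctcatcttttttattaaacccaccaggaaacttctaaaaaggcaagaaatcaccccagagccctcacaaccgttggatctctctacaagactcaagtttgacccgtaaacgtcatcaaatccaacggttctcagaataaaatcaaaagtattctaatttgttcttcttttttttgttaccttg
GDPD1 and SPX3 held 2 matches each and PS2 held 1. PAP17, SPX1 and PHT1;4, which rose as well, had no match in this window.

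**Figure D5:**
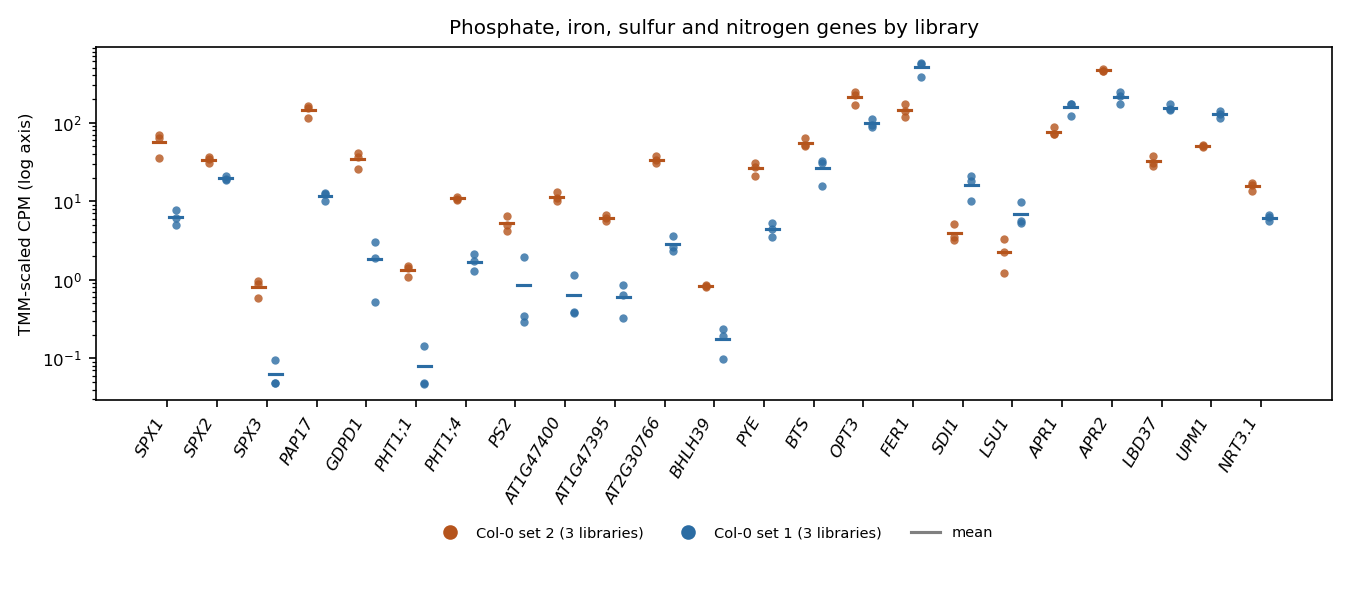
TMM-scaled CPM on a log axis for 23 genes of phosphate, iron, sulfur and nitrogen supply, 1 point per library, with set 2 left and set 1 right in each pair and a bar at the mean. The phosphate genes and the iron genes from AT1G47400 to OPT3 are higher in set 2, while FER1, SDI1, LSU1, LBD37 and UPM1 are lower.

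Iron-deficiency genes were mostly higher in set 2 where they were called. Of 18 tested genes 9 (50%) were higher and 1 (5.56%) lower, against 16.3% and 17.3% of all genes tested. The median change of the list was 0.82. Without replicate 3 of set 1, 10 were higher and 1 lower. AT1G47400 had 10.07, 11.1 and 13 CPM in set 2, against 0.391, 0.375 and 1.15 CPM in set 1 (log2 change 4.15 ± 0.34, adjusted p = 8.13e-05). AT1G47395 rose by 3.32 ± 0.29, and AT2G30766 had 33.5, 30.3 and 37.8 CPM in set 2, against 2.64, 2.3 and 3.64 CPM in set 1 (log2 change 3.57 ± 0.2, adjusted p = 1.18e-05). Only 39.3% of the exon bases of AT2G30766 are free of overlap. The bHLH factor PYE had 27, 30.8 and 20.7 CPM in set 2, against 4.4, 3.52 and 5.26 CPM in set 1 (log2 change 2.57 ± 0.21, adjusted p = 6.73e-05). BTS, the iron-binding ubiquitin ligase that acts against the bHLH factors, and OPT3, which loads iron into the phloem, rose by 1.06 ± 0.25 and 1.12 ± 0.16 (adjusted p = 0.0114 and 0.00106). BHLH38, BHLH39 and BHLH100 were called higher with at most 1.04 CPM in any library. The root uptake genes FIT and FRO2 had changes of -0.43 and 0.21 and were not called, and IRT1 had too few counts to be tested. FER1, an iron-storage ferritin, had 173, 119 and 141 CPM in set 2, against 376, 565 and 573 CPM in set 1, and fell by 1.81 ± 0.2 (adjusted p = 0.000305). The other ferritins FER2, FER3 and FER4 overlapped between the sets, and without replicate 3 of set 1 the list again held 1 lower gene and 0 higher of 4 tested. The nicotianamine synthase NAS1 fell by 0.85 ± 0.16 (adjusted p = 0.00458).

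Sulfur-deficiency genes were mostly lower in set 2 where they were called. Of 14 tested genes 8 (57.1%) were lower and 1 (7.14%) higher, against 17.3% and 16.3% of all genes tested. The median change of the list was -0.95. Leaving out replicate 3 of set 1 gave 10 lower and 1 higher. SDI1, a repressor of glucosinolate synthesis, had 3.51, 3.23 and 5.16 CPM in set 2, against 20.7, 17.9 and 9.95 CPM in set 1 (log2 change -2.03 ± 0.29, adjusted p = 0.00114). LSU1 and LSU3 fell by 1.59 ± 0.36 and 1.84 ± 0.32 (adjusted p = 0.00965 and 0.00290), while LSU2 was not called. The adenosine phosphosulfate reductases, which catalyse the key step of sulfate assimilation, split. APR1 had 72.2, 86.8 and 70.7 CPM in set 2, against 175, 173 and 121 CPM in set 1, a fall of 1.03 ± 0.17 (adjusted p = 0.00189). APR2 had 448, 453 and 483 CPM in set 2, against 170.3, 242 and 216 CPM in set 1, a rise of 1.14 ± 0.15 (adjusted p = 0.000583), with 53.6% of its exon bases free of overlap. APR3 was not called.

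Nitrogen genes were called in both directions, 9 higher and 6 lower of 30 tested, and 10 and 6 without replicate 3 of set 1. With all libraries the shares were 30% and 20%, against 16.3% and 17.3% of all genes tested. The 6 lower members were the repressor genes LBD37, LBD38 and LBD39, the sirohaem synthesis gene UPM1, and AT1G25550 and AT1G68670. LBD37 had 28.3, 37.1 and 30.7 CPM in set 2, against 174, 148 and 144 CPM in set 1 (log2 change -2.28 ± 0.15, adjusted p = 2.71e-05). LBD38 and LBD39, which with LBD37 repress nitrogen uptake genes, fell by 0.8 ± 0.12 and 0.68 ± 0.14. UPM1 had 51.4, 51 and 48.8 CPM in set 2, against 129.9, 139 and 114 CPM in set 1 (log2 change -1.34 ± 0.12, adjusted p = 0.000112). AT1G25550 and AT1G68670 fell by 1.95 ± 0.18 and 1.14 ± 0.13. Among the higher members were transport genes. NRT3.1, a partner of the high-affinity nitrate transporters, had 13.3, 16.2 and 17.2 CPM in set 2, against 6.7, 5.63 and 6.22 CPM in set 1 (log2 change 1.33 ± 0.16, adjusted p = 0.000452). NRT1.5, NRT1.8 and NRT2.1 rose by 1.03, 2.1 and 1.93, although NRT2.1 had at most 1.05 CPM in any library. The nitrate and nitrite reductase genes NIA1, NIA2 and NIR1 were not called.

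Flavonoid genes were called in both directions. Of 13 tested genes 7 (53.8%) were higher and 4 (30.8%) lower in set 2, against 16.3% and 17.3% of all genes tested. Only F3'H and PAP1 of the list were not called. The same counts were found without replicate 3 of set 1. MYB111, an activator of flavonol synthesis, had 47, 37.1 and 47.6 CPM in set 2, against 2.44, 2.49 and 5.79 CPM in set 1 (log2 change 3.62 ± 0.31, adjusted p = 9.85e-05). Its relatives MYB11 and MYB12 rose by 2.66 ± 0.45 and 1.87 ± 0.39. The early enzymes CHS and CHI rose by 1.43 ± 0.22 and 1.15 ± 0.15, and FLS1, which makes flavonols, had 206, 258 and 233 CPM in set 2, against 47.5, 75.2 and 96.7 CPM in set 1 (log2 change 1.67 ± 0.23, adjusted p = 0.00102). The late anthocyanin enzymes were lower. DFR had 15.4, 15.2 and 9.02 CPM in set 2, against 75.5, 43.9 and 97.4 CPM in set 1 (log2 change -2.45 ± 0.3, adjusted p = 0.000581), and LDOX and UF3GT fell by 2.51 ± 0.35 and 1.74 ± 0.24. TT8, a bHLH activator of the late genes, fell by 1.58 ± 0.33 (adjusted p = 0.00628). The MYB activator PAP1 overlapped between the sets, and its homologue PAP2 rose by 1.35 ± 0.45 (adjusted p = 0.0445).

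Stress and defence genes were called in both directions, with some shares near those of all genes tested (16.3% higher and 17.3% lower). For cold and water-deficit genes the shares higher and lower were 15.4% and 38.5%. They were 14.3% and 0% for heat shock genes, and 6.25% and 18.8% for salicylic acid and immune genes. Of 13 tested cold and water-deficit genes 5 were lower and 2 higher in set 2, and 5 and 3 without replicate 3 of set 1. COR15A, a chloroplast protein that protects membranes in the cold, had 2.37, 2.67 and 2.73 CPM in set 2, against 33.8, 29 and 25.9 CPM in set 1 (log2 change -3.51 ± 0.17, adjusted p = 9.07e-06). RD26, a NAC factor of the abscisic acid response, had 2.51, 5.27 and 3.31 CPM in set 2, against 42.6, 27.8 and 22.4 CPM in set 1 (log2 change -3.06 ± 0.32, adjusted p = 0.000222). Other cold markers in the list, COR47, COR78, KIN1 and KIN2, were not called. HSP101 was the single heat shock gene called of 7 tested, with a rise of 1.54 ± 0.32 (adjusted p = 0.00615), and 1 gene was called higher without replicate 3 of set 1 as well. Of 16 salicylic acid and immune genes PR1 rose by 0.76 ± 0.19, and PR2, SAG101 and WRKY70 fell by 1.06, 0.73 and 0.99, so 1 was higher and 3 lower, against 1 and 2 without replicate 3 of set 1, where WRKY70 lost its call (adjusted p = 0.144). Of 5 tested floral organ genes AG and SEP1 were lower, with no level above 4.69 CPM in any library, and SEP1 lost its call without replicate 3 of set 1 (adjusted p = 0.13). In that fit 1 was higher and 2, AG and PI, were lower of 6 tested.

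Some of the largest changes lay outside the lists. Among called genes of at least 5 CPM in a set whose libraries did not overlap, the 10 largest rises included 6 genes and the 10 largest falls 7 genes that belong to no list. AT2G01422, a non-coding RNA on chromosome 2 (183940 to 184734, plus strand, TAIR10.1), had 37.6, 55.2 and 46.8 CPM in set 2, against 0.44, 0.235 and 0.191 CPM in set 1 (log2 change 7.32 ± 0.28, adjusted p = 5.09e-06). NdhL, on chromosome 1 (26687202 to 26688384, plus strand), had 225 to 364 counts per set 2 library and none in set 1, which is at least 175-fold higher in set 2 with a floor of 3 counts over set 1. All of its exon bases lie within another annotated gene, so its value is uncertain. The ribosomal protein gene AT4G29390, with 33% of its exon bases free of overlap, rose by 5.08 ± 0.28. The defensin genes AT1G13609 and PDF1.2b rose by 4.94 ± 0.34 and 4.33 ± 0.53, and AT2G23910, a gene of the NAD(P)-binding Rossmann-fold superfamily, rose by 3.79 ± 0.41.

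The largest fall under that rule was AT1G80440, a kelch-repeat protein gene on chromosome 1 (30241452 to 30243176, plus strand), with 0.782, 1.02 and 1.05 CPM in set 2, against 126, 92.6 and 39.3 CPM in set 1 (log2 change -6.49 ± 0.45, adjusted p = 4.19e-05). AT1G23390, a kelch-repeat F-box gene also on chromosome 1 (8308965 to 8310916, minus strand), had 10.5, 16.1 and 16.7 CPM in set 2, against 459.8, 354 and 346 CPM in set 1 (log2 change -4.74 ± 0.22, adjusted p = 9.5e-06). In both genes all set 2 libraries lay far below all set 1 libraries. AT2G20670 and AT3G07350, which the reference places in the same family of unknown function (DUF506), fell by 4.51 ± 0.26 and 4.52 ± 0.27. The other 3 falls, AT2G29300, AT1G02610 and AT5G62280, changed by -5.39, -5.05 and -4.54 on the log2 scale.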

How the data were processed

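Column-purified total RNA was made into libraries by a service company, per the labels' protocols. The submitters' processing notes name fastp 0.23.4, HISAT2 2.2.1 and TAIR10. Strand use, the counting program and the annotation version are not given in the sources used here. For each set the authors deposited gene counts in a table of its own. They also deposited TMM-scaled TPM, a score per gene that was normalized separately in each table and was used only for a check. TPM recomputed from counts matched it within 5% for at least 99.6% of genes with 200 counts or more. The 12 mutant columns were not used.

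Counts of the 6 Col-0 libraries were joined by identifier, filtered with filterByExpr, and scaled by TMM. The 2-sided quasi-likelihood test of edgeR 4.0.16 (R 4.3.3, robust dispersion) used 1 mean per set and no block. Adjusted p-values are Benjamini-Hochberg values over all genes tested, and SE is the log2 change divided by the square root of F. Depth was 21609016 to 39510509 counts per library, and bounds from a count of 0 cover counting error only. The deposited identifiers matched the TAIR10.1 reference for 32548 of 32833 genes, and 5888 tested genes overlap another gene there, so with strand unknown their values are uncertain. Overlap is stated beside only some of the named genes. Other named genes that overlap carry the same uncertainty.

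The members and the 22 gene lists (430 genes, 381 tested) were chosen with earlier results of these data known, and lists are described by counts and medians with no test. Named genes are all clock genes, up to 8 called members per list by smallest adjusted p and others where a list is accounted for, and the 10 largest rises and falls among called genes with at least 5 CPM in a set and no overlap. Alternatives were RLE and upper-quartile scaling, other count filters, DESeq2 1.42.0, a 2-fold minimum, thinning set 2 to the depth of set 1, a length correction, a replicate block, non-overlapping genes only and leaving out each library.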

Additional observations from a re-analysis of the deposited data

How the results depend on the processing

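The total of 6498 called genes was 6490 with RLE scaling, 6575 with upper-quartile scaling, 6400 with no count filter, 6281 with a filter of 1 CPM, 6960 with DESeq2, 6167 with set 2 thinned to the depth of set 1, 7655 with the length correction and 4483 among genes that overlap no other. Requiring a 2-fold change left 2420 genes, and then 3 clock output, 8 light signalling, 6 antenna and photosystem, 0 Rubisco and Calvin cycle, 1 chlorophyll, 7 starch, 9 nitrogen, 1 salicylic acid and immune, 1 root marker and 1 floral organ genes. Leaving out 1 library gave 3593 to 7608 calls: 4074, 3593 and 3996 without set 2 replicates 1, 2 and 3, and 5332, 6505 and 7608 without those of set 1. Over these fits 8 to 18 starch genes, 4 to 11 Rubisco and Calvin cycle genes and 3 to 7 chlorophyll genes were called, and 2 salicylic acid and immune genes without set 2 replicate 3. Restricting the test to genes that overlap no other left 19 antenna and photosystem, 2 chlorophyll, 0 heat shock and 0 ferritin genes, because fewer members were tested. Otherwise the cause was not tested. The labels share replicate numbers but do not say that they pair libraries, and deviations of same-numbered libraries correlated at -0.00862, 0.0660 and 0.0728. A fit with the replicate block called 6013 genes. The alternatives were computed for all tested list members and the largest single changes, 394 genes of which 216 were called. None of these 216 changed sign under any of the 16 alternatives that tested it, and 162 were called in all 6 fits that left out a library. Some called genes named in the report were called in 3 or fewer of these fits. They included TOC1, LUX, HAT3, ELIP1, ELIP2, LHCB7, DIN4, DIN9, DRM1, BAM5, LSF1, PEPC1, WRKY70, SEP1 and PAP2. Set 1 has less depth, so genes with few counts there, such as PRR5, are known only as bounds. The deposited TMM-scaled TPM with limma was not run, since the tables were normalized separately.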

Other observations

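Disease resistance genes were mostly lower in set 2 where they were called, and peroxidase and defensin genes were mostly higher. These families were grouped by the product name in the reference and chosen after their values were seen, so their counts are a description with no test. Of 117 tested genes whose product is named disease resistance protein, the class that holds the intracellular immune receptors, 40 were lower in set 2 (34.2%) and 3 were higher, against 17.3% and 16.3% of all genes tested, with a median log2 change of -0.24. The receptor gene RPP4 averaged 13.4 ± 1.29 CPM in set 2 and 44.9 ± 10.7 CPM in set 1 (SD, n = 3 each), and RPP5 averaged 24.02 ± 2.17 CPM in set 2 and 66.6 ± 13.6 CPM in set 1. RPP4 and RPP5 are similar copies, so how reads were divided between them is uncertain. Of 36 tested genes with peroxidase superfamily protein in the product name 17 were higher in set 2 (47.2%, against 16.3% of all genes tested). In the edgeR test 0 were lower, also at an unadjusted p under 0.05, and the median change was 1.13. Levels of the higher genes ranged widely. PRXR1 averaged 710 CPM in set 2 and 330 CPM in set 1. AT5G64100 and AT5G39580 averaged 0.67 and 0.75 CPM in set 2 and 0.08 CPM each in set 1. Counts without replicate 3 of set 1 were not made for these families. Of 12 tested genes with defensin in the product name 9 were higher (75%) and 1, AT3G13403, was lower (8.33%). PDF1.3 averaged 80.8 ± 48.7 CPM in set 2 and 11.7 ± 5.65 CPM in set 1, and PDF1.2 averaged 89.5 ± 53.6 CPM in set 2 and 21.3 ± 14.5 CPM in set 1, with overlapping libraries for PDF1.2. The PDF1 genes are also similar copies.

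The I-box, a motif known from light-regulated promoters, had different shares among the genes that were lower and higher, which is a description with no test. GATAAG, searched on both strands in the same 300 bases, was present in 21.9% of promoters of genes at least 2-fold lower in set 2 and in 12.9% of those at least 2-fold higher, against 14.5% of all promoters of tested genes. Among all called genes the shares were closer, at 17.2% for those lower and 13.5% for those higher. For the G-box CACGTG the shares were 10.8% for genes at least 2-fold lower, 8.81% for those at least 2-fold higher and 8.01% for all, and among all called genes 9.36% for those lower and 8.22% for those higher. The CCA1 binding site AAAAATCT was present in 7.97% of genes at least 2-fold lower and 6.86% of those at least 2-fold higher, against 8.01% of all, and in 8.63% and 7.55% of all genes called lower and higher. None of the motifs searched contains another. A match describes letters in this window and not a bound site.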
